A study of Homo sapiens with 9 samples.

Results

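The 43 genes described here place a breast cell between the epithelial and the mesenchymal state. They were chosen by name, from 61155 gene symbols in the count tables, and all 43 were found. They comprise 5 transcription factors that drive the epithelial-mesenchymal transition (EMT), 6 mesenchymal markers, 4 epithelial regulators, 11 epithelial junction and surface genes, 7 basal keratins and factors, 6 simple and other keratins and 4 luminal factors. RNA-seq was done on MDA-MB-231, an established human breast cancer line that the labels call basal-like. The groups were KO1 and KO2, which are separate clones labelled as knockouts of FBXL12, and WT, cells that received a scrambled control guide RNA. Each group had 3 libraries. FBXL12 encodes an F-box protein, the substrate-binding part of an SCF ubiquitin ligase.

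A clone descends from 1 cell, so each knockout was sampled as a single clone. The labels do not say whether the libraries of a group came from separate cultures, and p-values therefore measure the spread between libraries, which may be technical. Library totals ran from 52427841 to 97243363 counts, so that a count of 0 allows up to 3 counts, or 0.0305 to 0.0574 CPM (read counts scaled to a common library total). FBXL12 mRNA averaged 9.64 ± 0.282 CPM in KO1 and 5.94 ± 0.541 CPM in KO2, against 22.3 ± 0.998 CPM in WT (SD, n = 3 each). Both clones were thus below WT, with FBXL12 reads still present in each library. KO2 replicate 3 had the fewest genes with a count, 23638 against 24986 and 25701 in the other KO2 libraries. Leukocyte markers summed to at most 2.16 CPM in any library, and fibroblast markers to at most 5.84 CPM. Endothelial markers summed to 21.8 to 22.4 CPM in KO1 and 19.0 to 21.6 CPM in KO2, against 14.8 to 15.7 CPM in WT, nearly all of it KDR; PECAM1, VWF, CDH5 and TEK stayed under 1 CPM in every library. Red cell and fat cell markers summed to at most 0.206 CPM. Mitochondrial genes took 3.28 to 3.97% of counts in KO1 and 4.49 to 5.39% in KO2, against 3.52 to 3.83% in WT. The part of these differences in the results below was not tested.

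Epithelial cells are held together by E-cadherin, claudins and desmosomes, and their skeleton is built from keratin pairs. In EMT, the ZEB, SNAIL and TWIST factors silence many of these genes, and vimentin and other mesenchymal genes take their place, while GRHL2 and the ESRP splicing factors uphold the epithelial programme. MDA-MB-231 is widely used as a line at the mesenchymal end of this range.

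The ZEB and SNAIL factors bind the sequence CAGGTG, an E-box. It was looked for in both orientations (CACCTG on the other strand) in the 250 bases before 1 RefSeq start per gene. By the GENCODE gene bounds, the DSP window runs into the gene, which begins at 7541575. The S100A4 and CLDN7 windows lie inside genes that reach to 153550136 and 7263983. The promoters of 4 genes whose RNA differed between the groups are shown for what this window holds, in the direction of the gene, with each match in capitals (RefSeq, GRCh38.p14).
S100A4, chr1:153545807-153546056, minus strand: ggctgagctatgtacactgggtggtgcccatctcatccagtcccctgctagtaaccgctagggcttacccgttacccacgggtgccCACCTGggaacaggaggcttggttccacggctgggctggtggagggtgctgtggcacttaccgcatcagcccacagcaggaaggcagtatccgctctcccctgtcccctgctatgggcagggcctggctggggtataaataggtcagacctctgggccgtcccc
CD24, chr6:106975628-106975877, minus strand: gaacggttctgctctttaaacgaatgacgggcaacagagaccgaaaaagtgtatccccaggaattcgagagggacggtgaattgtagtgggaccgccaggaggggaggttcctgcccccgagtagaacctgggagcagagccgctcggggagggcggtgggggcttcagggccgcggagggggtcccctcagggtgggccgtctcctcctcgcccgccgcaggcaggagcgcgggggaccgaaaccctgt
CLDN7, chr17:7263214-7263463, minus strand: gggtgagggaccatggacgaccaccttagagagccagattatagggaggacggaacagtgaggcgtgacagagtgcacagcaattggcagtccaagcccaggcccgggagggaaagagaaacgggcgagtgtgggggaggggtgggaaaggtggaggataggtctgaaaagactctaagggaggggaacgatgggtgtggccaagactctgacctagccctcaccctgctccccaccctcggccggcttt
DSP, chr6:7541421-7541670, plus strand: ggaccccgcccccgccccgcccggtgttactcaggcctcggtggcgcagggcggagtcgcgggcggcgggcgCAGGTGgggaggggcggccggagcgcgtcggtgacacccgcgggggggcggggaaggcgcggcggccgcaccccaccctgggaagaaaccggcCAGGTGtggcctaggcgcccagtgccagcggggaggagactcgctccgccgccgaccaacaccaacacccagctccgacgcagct
The match began at base -164 from the start in S100A4 and at bases -178 and -85 in DSP, and there was none in the windows of CD24 and CLDN7. The promoter table held 23 of the 43 genes, and CDH1, EPCAM and MPZL2 were among the 20 it lacked. Of the 23 genes, 9 had a match, or 39.1%. Among all 27305 promoters it was 4781, or 17.5%. A match is a description of the letters and does not show that a factor binds there.

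The levels of the state genes were read first, to set the label against the data. Levels are compared between genes as CPM per kilobase of exon. The length takes in every annotated exon of a gene, so ranks between genes depend on the annotation. In WT, VIM, which encodes the intermediate filament vimentin, stood highest at 544.8 ± 27.2 CPM per kilobase (SD, n = 3). It was followed by AXL, a receptor tyrosine kinase linked to invasion, at 323.2 ± 16.5, and by the keratin gene KRT18 at 143.9 ± 5.87. CD44, the hyaluronan receptor, was at 103.3 ± 2.76, KRT19 at 94.3 ± 7.27 and KRT8 at 60.2 ± 5.62 CPM per kilobase. These 6 genes held the 6 highest places in KO1 and KO2 as well. By CPM alone the order of the keratins differed in WT, with KRT8 (414.5 ± 38.6) above KRT19 (220.2 ± 17) and below KRT18 (463 ± 18.9). Their exon lengths were 6881 bases for KRT8, 2336 for KRT19 and 3218 for KRT18. ZEB1, the EMT factor with the highest level, was at 16.7 ± 0.125 CPM per kilobase in WT and SNAI2 at 4.53, while ZEB2 (0.812) and SNAI1 (0.713) were lower. The place of ZEB2 rests on its exon length of 25058 bases, against 1686 for SNAI1. By CPM alone ZEB2 was at 20.3 in WT, above SNAI2 at 15.4 and SNAI1 at 1.2.

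CDH1, GRHL2 and the hormone receptor genes ESR1 and PGR were at or near 0. CDH1, which encodes E-cadherin, had 8, 0 and 1 counts in the KO1 libraries and 1, 0 and 0 in KO2, against 2, 0 and 0 in WT. The ratio of summed counts was 4.09 in KO1 against WT, with a counting interval of 0.847 to 38.9. PGR, the progesterone receptor gene, had 0 counts in all 9 libraries, and ESR1, the oestrogen receptor gene, had 12, 6 and 2 in KO1 and 7, 1 and 8 in KO2, against 14, 7 and 1 in WT. GRHL2 had 1 count in 1 KO2 library and 0 in the others. Of EMT genes, TWIST1 had 2 counts in 1 KO1 library and 0 elsewhere, and the mesenchymal cadherin gene CDH11 had 0 to 7 counts. All 9 libraries thus lacked E-cadherin, progesterone receptor and GRHL2 transcripts at the level this depth can show, except for the few counts named.

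The basal keratins that would fit the label were as low. KRT5 had 1 count in 1 WT library and 0 in the other 8, and KRT6A had at most 1 count in any library. KRT14, the partner of KRT5, had 2, 2 and 28 counts in KO1 and 2, 1 and 0 in KO2, against 8, 7 and 9 in WT. The 28 counts of KO1 replicate 3 stand apart from the other KO1 libraries, and KRT14 was not tested. Its summed counts gave ratios to WT of 1.21 in KO1 (counting interval 0.692 to 2.15) and 0.153 in KO2 (0.0295 to 0.503). KRT16 ran from 5 to 18 counts and KRT17 from 1 to 13, and some reads of KRT17 may come from its pseudogene copies, which held counts equal to 44.6% of its own. KRT15 alone of the basal keratins was well above the floor, at 10.8 ± 0.252 CPM in KO1 and 11.1 ± 0.934 CPM in KO2, against 9.14 ± 1.28 CPM in WT. By these genes the libraries hold cells with simple keratins (KRT7, KRT8, KRT18, KRT19) and vimentin, and with next to none of the basal pair KRT5 and KRT14.

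**Figure D1:**
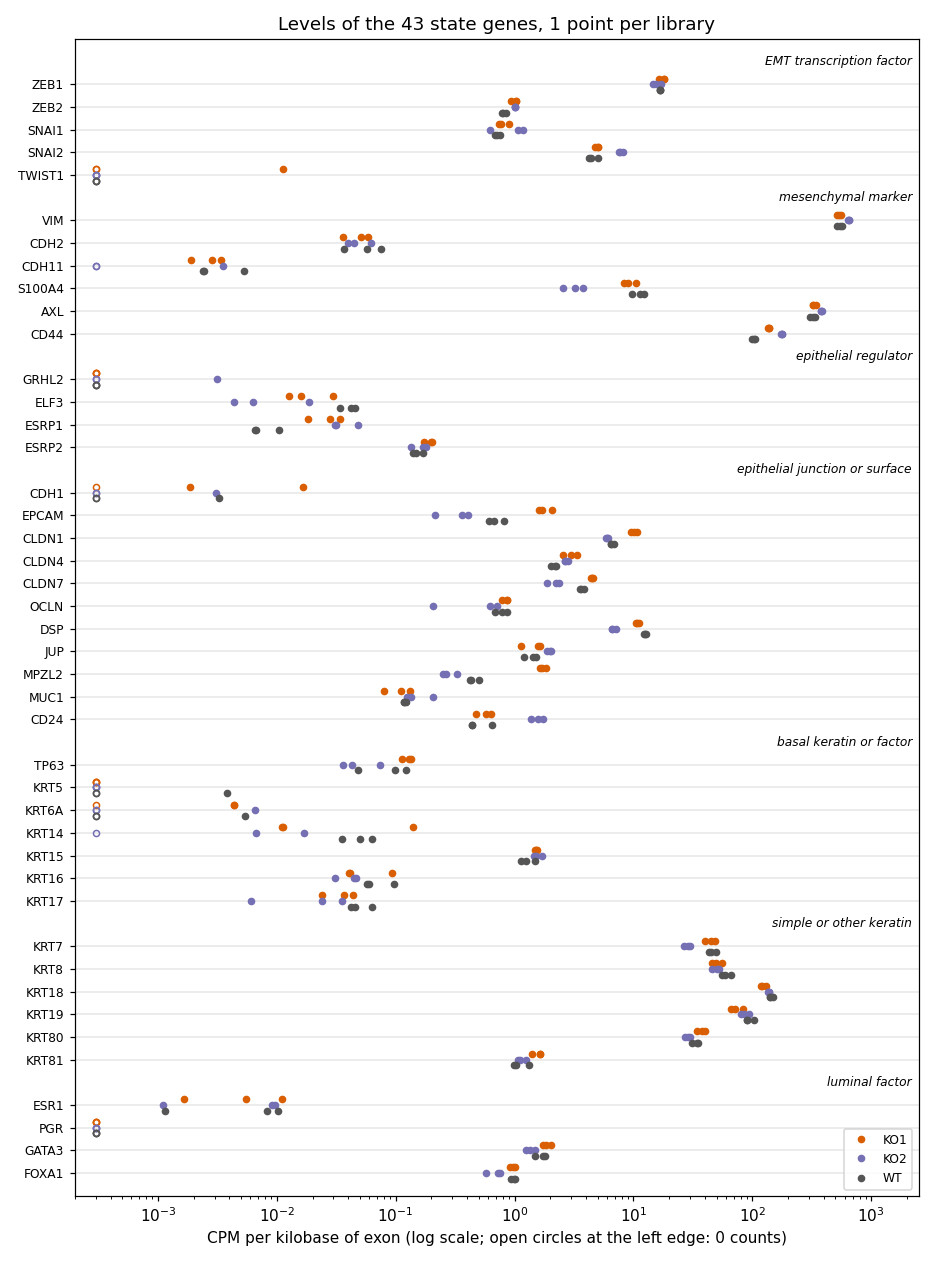
Level of each of the 43 genes in each library as CPM per kilobase of exon on a log axis, grouped by role (KO1 above KO2 above WT in each row; open circles at the left edge are libraries with 0 counts). VIM, AXL and the simple keratins lie at the right, while PGR, GRHL2, TWIST1, KRT5, KRT6A and CDH1 lie at or near the left edge in all groups.

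The comparisons of each clone with WT ask which of these genes differ in a clone, and the comparison of KO1 with KO2 asks whether the clones differ from each other. Of the 43 genes, 32 passed the filter on low counts and were tested; ESRP1 passed only through the KO1 and KO2 libraries, and ELF3 mainly through the WT libraries, where each is high, so these 2 had to differ and their calls support nothing on their own. Changes were called where edgeR's quasi-likelihood test, fitted over all genes, gave a p under 0.05 after Benjamini-Hochberg adjustment. In KO1 against WT, 10 of the 32 were higher and 4 lower, that is 14 of 32, or 43.8%, beside 34.8% of all 17759 tested genes (18.0% higher, 16.8% lower). In KO2 against WT, 10 were higher and 12 lower, or 68.8% beside 49.4% of all genes (24.7% higher, 24.7% lower). In KO1 against KO2, 13 were higher and 7 lower, or 62.5% beside 48.9% of all genes (23.9% higher, 24.9% lower). The median log2 change was 0.14 in KO1 and -0.11 in KO2, against medians over all genes of -0.0049 and -0.0077. With the GC trend of each library removed, 16 state genes were higher in KO1, where 21.6% of all genes were, and 14 were higher and 14 lower in KO2, where 30.1% and 25.1% of all genes were.

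Both clones are set against the same WT libraries, so their values are given side by side. The called changes of at least 2-fold numbered 3 in KO1 (9.38% of the 32, beside 3.55% of all genes), 5 in KO2 (15.6% beside 9.75%) and 6 in KO1 against KO2 (18.8% beside 10.2%). They concern 8 genes, EPCAM, MPZL2, CLDN7, TP63, CD24, S100A4, ESRP1 and ELF3. ESRP1 is 1 of the 3 in KO1, and ESRP1 and ELF3 are 2 of the 5 in KO2.

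Among the epithelial surface and junction genes, EPCAM, MPZL2 and CLDN7 rose in KO1 and fell in KO2. EPCAM, a surface adhesion protein used to define epithelial cells, had 4.27, 5.24 and 4.05 CPM in KO1 and 0.536, 0.910 and 1.02 CPM in KO2, against 2.07, 1.69 and 1.54 CPM in WT. The 3 groups do not overlap, with KO1 above and KO2 below WT. The log2 change was 1.34 ± 0.18 in KO1 (SE; adjusted p = 3.59e-05) and -1.09 ± 0.21 in KO2 (adjusted p = 0.000436), and KO1 lay 2.43 ± 0.20 above KO2 (adjusted p = 6.25e-08), which is 5.40-fold. EPCAM spans chr2:47345158-47387601 on the plus strand (GRCh38), and the 20 expressed protein-coding genes around it had median changes of 0.20 in KO1 and 0.12 in KO2.

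MPZL2 encodes an adhesion protein of the immunoglobulin family found in epithelia. It had 8.68, 8.05 and 7.71 CPM in KO1 and 1.57, 1.18 and 1.25 CPM in KO2, against 2.02, 2.04 and 2.38 CPM in WT. Again KO1 stood above and KO2 below every WT library. The log2 change was 1.93 ± 0.12 in KO1 (adjusted p = 2.04e-08) and -0.69 ± 0.14 in KO2 (adjusted p = 0.000573). The clones differed by 2.62 ± 0.13 (adjusted p = 2.23e-10), or 6.14-fold, the widest gap between them among the 32 genes. MPZL2 spans chr11:118253403-118264536 on the minus strand, where its neighbours had medians of 0.20 and -0.08.

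CLDN7, a claudin of the tight junction, had 11.2, 10.9 and 11.4 CPM in KO1 and 5.93, 5.61 and 4.63 CPM in KO2, against 9.11, 8.80 and 9.56 CPM in WT. The groups do not overlap, but the step in KO1 is small. Its change was 0.28 ± 0.09 in KO1 (adjusted p = 0.0237) and -0.77 ± 0.09 in KO2 (adjusted p = 7.48e-06). The KO1 call was lost without KO1 replicate 3, WT replicate 1 or WT replicate 2, with values of 0.27 to 0.33 over all libraries left out. KO1 was 1.05 ± 0.09 above KO2 (adjusted p = 1.77e-07). In this gene's window of 250 bases before the start, shown above, no CAGGTG was found. Exons of CLDN7 overlap those of ELP5 by 38 bases on the opposite strand, with 47775 counts for ELP5 against 5735 for CLDN7. Without a stated strand setting, reads of that stretch cannot be assigned with certainty.

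CLDN1, another claudin, averaged 37.1 ± 2.41 CPM in KO1 and 22.0 ± 0.435 CPM in KO2, against 24.2 ± 0.870 CPM in WT (SD, n = 3 each). It rose by 0.61 ± 0.06 in KO1 (adjusted p = 1.79e-06), and its change of -0.14 in KO2 missed the threshold (adjusted p = 0.0702), with all KO2 libraries below WT. The KO2 change was called with the GC trend removed (-0.18, adjusted p = 0.0023) and without KO1 replicate 2 (-0.15, adjusted p = 0.0317). CLDN4 was higher in both clones, at 13.9 ± 1.89 CPM in KO1 and 12.7 ± 0.384 CPM in KO2, against 10.1 ± 0.507 CPM in WT. Its log2 changes were 0.47 and 0.34 (adjusted p = 0.00108 and 0.00724), and KO1 and KO2 differed by 0.13 (interval -0.06 to 0.33, not called), or by 0.24 without KO1 replicate 2 (adjusted p = 0.0218).

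OCLN, which encodes the tight junction protein occludin, was called in no comparison. It had 5.34, 5.88 and 5.82 CPM in KO1 and 1.40, 4.84 and 4.23 CPM in KO2, against 4.66, 5.31 and 5.81 CPM in WT. KO2 replicate 1 lay far below the other 2 KO2 libraries. Without it the difference of KO1 from KO2 was 0.34 (adjusted p = 0.0394), while over all libraries it was 0.69 and not called (adjusted p = 0.173).

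The desmosome genes went in opposite directions in KO2. DSP, which encodes desmoplakin, had 107.8, 106.6 and 112.9 CPM in KO1 and 66.5, 66.9 and 71.7 CPM in KO2, against 124.8, 127.0 and 129.8 CPM in WT. Both clones lay below all WT libraries, KO2 further than KO1. The change was -0.22 ± 0.04 in KO1 (adjusted p = 0.00122) and -0.90 ± 0.04 in KO2 (adjusted p = 4.21e-10). The 20 genes around DSP on chromosome 6 had median changes of -0.31 in KO1 and -0.29 in KO2, so that the KO1 value is no lower than its surroundings; their part in the result was not tested. JUP, the gene of plakoglobin, a partner of desmoplakin, averaged 7.14 ± 1.38 CPM in KO1 and 9.68 ± 0.385 CPM in KO2, against 6.83 ± 0.855 CPM in WT, and rose in KO2 by 0.51 ± 0.13 (adjusted p = 0.00524). With the GC trend removed the KO2 change of JUP was 0.82. The promoter of DSP was the one with a pair of CAGGTG matches among those shown, and MUC1, not shown, also had 2 matches.

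CD24, a small glycosylated surface protein that is low on mesenchymal breast cells, had 1.77, 1.95 and 1.47 CPM in KO1 and 4.88, 4.29 and 5.41 CPM in KO2, against 1.35, 1.35 and 1.99 CPM in WT. All KO2 libraries were above all others, and KO1 overlapped WT. CD24 rose by 1.65 ± 0.17 in KO2 (adjusted p = 8.20e-07), or 3.13-fold, while its change in KO1 was 0.15 (interval -0.21 to 0.52, not called). KO1 against KO2 gave -1.49 ± 0.16 (adjusted p = 1.43e-06). MUC1, a surface mucin, was under 1 CPM in every library and called in no comparison; with the GC trend removed its change in KO2 was 1.04 and was called (adjusted p = 0.000768), against 0.39 with the trend left in.

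Of the mesenchymal markers, CD44 rose in both clones. It had 1351.8, 1391.1 and 1387.7 CPM in KO1 and 1790.2, 1744.2 and 1772.9 CPM in KO2, against 1003.9, 1039.6 and 1058.2 CPM in WT. The 3 groups are apart, with KO2 highest. The log2 change was 0.41 ± 0.04 in KO1 (adjusted p = 5.49e-07) and 0.78 ± 0.04 in KO2 (adjusted p = 1.78e-10). Neighbouring genes had medians of 0.12 and 0.10. CD24 and CD44 are often read together on breast cells, and both were highest in KO2.

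VIM and AXL rose in KO2 by less. VIM had 2659.5, 2856.1 and 2764.8 CPM in KO1 and 3315.0, 3344.2 and 3330.1 CPM in KO2, against 2677.9, 2795.1 and 2957.3 CPM in WT. KO2 lay above all other libraries, and KO1 overlapped WT. The change was 0.24 ± 0.04 in KO2 (adjusted p = 0.000171) and -0.03 in KO1 (interval -0.11 to 0.06, not called). AXL had 1758.8, 1670.7 and 1682.9 CPM in KO1 and 1936.5, 1953.9 and 2006.7 CPM in KO2, against 1582.7, 1752.7 and 1661.8 CPM in WT. Here too KO2 lay above all other libraries and KO1 overlapped WT. The change of AXL was 0.24 ± 0.04 in KO2 (adjusted p = 0.000213) and 0.03 in KO1 (not called), or 0.11 in KO1 with the GC trend removed (adjusted p = 0.0049). The genes around AXL on chromosome 19 had medians of -0.20 and -0.13, so AXL in KO2 stood above its surroundings.

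S100A4, a calcium-binding protein linked to cell motility, went the other way. It had 9.22, 10.8 and 8.47 CPM in KO1 and 2.60, 3.85 and 3.29 CPM in KO2, against 12.6, 11.7 and 9.99 CPM in WT. KO2 lay below all other libraries, and KO1 overlapped WT. S100A4 fell by 1.81 on the log2 scale in KO2 (SE 0.14; adjusted p = 1.45e-07), to 0.285 of the WT level, and its change in KO1 was -0.27 (interval -0.55 to 0.01, not called). The KO1 change was called without a filter on low counts (-0.26, adjusted p = 0.0463) and without KO1 replicate 2 (-0.37, adjusted p = 0.0443). Its neighbours on chromosome 1 had medians of -0.05 and -0.04. Its promoter window held 1 CAGGTG match. N-cadherin (CDH2), another mesenchymal cadherin, stayed under 0.4 CPM in every library and was called in no comparison.

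Of the 4 tested EMT factors, 1 rose in KO1 and 2 rose in KO2, and 0 fell in either. Of all tested genes, 18.0% were higher and 16.8% lower in KO1, and 24.7% each way in KO2. ZEB1, which represses CDH1, had 142.4, 157.5 and 155.9 CPM in KO1 and 134.5, 127.1 and 147.2 CPM in KO2, against 143.8, 144.3 and 145.9 CPM in WT. The groups overlap, and neither clone was called against WT (0.07 with an interval of -0.04 to 0.18 in KO1, and -0.09 with an interval of -0.20 to 0.03 in KO2). The KO2 change was called with the GC trend removed (-0.13, adjusted p = 0.00288) and without KO2 replicate 3 (-0.15, adjusted p = 0.0233). KO1 was above KO2 by 0.16 ± 0.05 (adjusted p = 0.0238), a call that was lost without KO1 replicate 3, KO2 replicate 1 or KO2 replicate 2, with values of 0.12 to 0.22 over all libraries left out, and with upper quartile scaling (0.13, adjusted p = 0.0596). ZEB2, its relative, averaged 25.1 ± 1.33 CPM in KO1 and 25.3 ± 0.188 CPM in KO2, against 20.3 ± 0.823 CPM in WT. It rose by 0.31 in each clone (adjusted p = 0.000981 and 0.000452). SNAI2, the gene of SLUG, averaged 16.7 ± 0.671 CPM in KO1 and 26.6 ± 1.07 CPM in KO2, against 15.4 ± 1.43 CPM in WT, and rose in KO2 by 0.79 ± 0.07 (adjusted p = 3.06e-07). Its change in KO1 was 0.12 (not called), or 0.21 without WT replicate 3 (adjusted p = 0.0454). SNAI1, the gene of SNAIL, was at 1.04 to 1.99 CPM and was not called over all libraries (0.41 in KO2 against WT and -0.23 in KO1 against KO2). Without KO2 replicate 3 these were 0.65 and -0.47 and both called (adjusted p = 0.00536 and 0.0266), and with the GC trend removed the KO2 change was 0.58 (adjusted p = 0.013).

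The epithelial regulators were scarce and their changes rest on few reads. ESRP1, a splicing factor of epithelial cells, had 7, 13 and 12 counts in KO1 and 8, 10 and 15 in KO2, against 5, 2 and 2 in WT. Both clones were above WT. The summed counts give ratios of 3.23 in KO1 (95% counting interval 1.51 to 7.70) and 4.48 in KO2 (2.10 to 10.7). Since ESRP1 passed the filter through the knockout libraries alone, its fitted values are a description. The fitted log2 changes were 1.66 ± 0.54 (adjusted p = 0.0266) and 2.13 ± 0.53 (adjusted p = 0.00389), and the KO1 call was lost without KO1 replicate 3, WT replicate 2 or WT replicate 3 (1.56 to 1.97 over all libraries left out). With DESeq2 the KO1 value was 1.72 and no longer called (adjusted p = 0.057), and without a filter on low counts it was 1.68 (adjusted p = 0.0727).

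ELF3, a transcription factor of epithelial cells, had 9, 17 and 8 counts in KO1 and 7, 3 and 2 in KO2, against 32, 15 and 19 in WT. By CPM both clones lay below WT. ELF3 passed the filter mainly through the WT libraries, so its calls are a description. The intervals of its summed counts cover counting error only. The ratio of summed counts was 0.469 in KO1 (0.3 to 0.719) and 0.222 in KO2 (0.109 to 0.415), and KO2 was called (-2.11 ± 0.53; adjusted p = 0.00366) while KO1 was not (-1.06; adjusted p = 0.0732). The KO1 change was called with limma-voom (-1.14, adjusted p = 0.0403), with only KO1 and WT fitted (-1.06, adjusted p = 0.0489) and without KO1 replicate 2 (-1.49, adjusted p = 0.0358). KO1 against KO2 was not called for ELF3 (1.05, interval -0.18 to 2.27), but without KO2 replicate 1 it was 1.82 and called (adjusted p = 0.0398), and the ratio of summed counts was 2.11 (1.06 to 4.47). A gene antisense to ELF3 overlaps 664 bases of its exons and held more counts than ELF3 itself, 350 against 112 over all libraries, and without a stated strand setting reads of the overlap cannot be assigned with certainty. ESRP2 was near 1 CPM and not called, but its change of 0.32 in KO1 was 0.51 with the GC trend removed (adjusted p = 0.0344). Exons of ESRP2 overlap those of NFATC3 by 149 bases on the opposite strand, with 20065 counts for NFATC3 against 618 for ESRP2. The same limit on assigning reads holds there.

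Of the simple keratins, KRT7 differed between the clones and the KRT8 and KRT18 pair differed less. KRT7 had 199.8, 162.2 and 185.2 CPM in KO1 and 117.5, 121.9 and 109.3 CPM in KO2, against 178.4, 204.2 and 185.7 CPM in WT. KO2 lay below all other libraries. KRT7 fell by 0.70 on the log2 scale in KO2 (SE 0.08; adjusted p = 1.36e-05), and its change in KO1 was -0.05 (not called). With the GC trend removed KRT7 was at -0.34 in KO2, and in KO1 the change turned to 0.23 and was called (adjusted p = 2.62e-06).

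KRT8 had 383.6, 317.5 and 340.6 CPM in KO1 and 347.2, 363.3 and 317.4 CPM in KO2, against 380.9, 456.7 and 406.0 CPM in WT. Its changes were -0.26 ± 0.09 in KO1 (adjusted p = 0.044) and -0.27 ± 0.09 in KO2 (adjusted p = 0.0239), and KO1 overlapped WT by 1 library. The KO1 call was lost without KO1 replicate 2, KO1 replicate 3, KO2 replicate 1, WT replicate 2 or WT replicate 3 (-0.32 to -0.17), and the KO2 call without KO2 replicate 3 or WT replicate 2 (-0.33 to -0.20). With a replicate block the KO1 change of KRT8 was -0.25 and not called (adjusted p = 0.0734). KRT18, its partner in the filament, had 423.4, 390.1 and 380.1 CPM in KO1 and 440.7, 446.2 and 435.3 CPM in KO2, against 451.4, 484.7 and 452.8 CPM in WT. It fell by 0.22 in KO1 (SE 0.05; adjusted p = 0.00157) and its change of -0.07 in KO2 was not called. KO1 was lower than KO2, at -0.15 (adjusted p = 0.013), a call lost without KO1 replicate 3, KO2 replicate 1 or KO2 replicate 2 (-0.18 to -0.10). Exons of KRT8 and KRT18 overlap by 525 bases on opposite strands, so some reads of this pair cannot be assigned with certainty. With the GC trend removed KRT18 was at -0.10 in KO1, and KRT8 at -0.13 in KO1 and -0.16 in KO2, all still called.

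KRT19 had 193.3, 155.8 and 166.2 CPM in KO1 and 198.3, 218.2 and 186.6 CPM in KO2, against 211.8, 239.7 and 209.0 CPM in WT. KO1 lay below all WT libraries and KO2 overlapped them. It fell by 0.36 in KO1 (SE 0.09; adjusted p = 0.0123), or by 0.10 with the GC trend removed. In KO2 its change of -0.13 was not called, and with the GC trend removed it turned to 0.19 and was called (adjusted p = 4.67e-05). KRT80 and KRT81, which are outside the simple pairs, were higher in KO1 than in KO2 by 0.38 and 0.45 (adjusted p = 7.23e-05 and 0.0141). The KRT81 difference was lost without KO2 replicate 2 (0.41 to 0.53), and reads of KRT81 may be shared with its close relatives. KRT80 against WT was 0.16 in KO1 (adjusted p = 0.0492) and -0.22 in KO2 (adjusted p = 0.00613). With the GC trend removed KRT80 was at 0.29 in KO1 and -0.085 in KO2. Its KO1 call was lost on leaving out any of 7 libraries, all but KO1 replicate 2 and WT replicate 2 (0.12 to 0.22), with a floor of 1 CPM in 3 libraries (0.15), with only KO1 and WT fitted (0.16) and with a replicate block (0.16). KRT81 rose in KO1 by 0.49 (adjusted p = 0.0117), which was lost without WT replicate 1 (0.42 to 0.64).

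The basal factor TP63, which encodes p63, had 1.01, 0.835 and 0.963 CPM in KO1 and 0.555, 0.319 and 0.268 CPM in KO2, against 0.742, 0.362 and 0.905 CPM in WT. KO1 and KO2 do not overlap, and both overlap the range of WT, where replicate 2 was lowest. KO1 was above KO2 by 1.32 ± 0.32 (adjusted p = 0.00282). The call in KO2 against WT (-0.85, adjusted p = 0.044) was lost without KO1 replicates 1 or 3, KO2 replicates 2 or 3, or WT replicates 1 or 3 (-1.21 to -0.61), with upper quartile scaling (-0.82), with limma-voom (-0.84), with only KO2 and WT fitted (-0.85) and with a replicate block (-0.81). KRT15 rose in KO2 by 0.28 ± 0.10 (adjusted p = 0.0279), lost without KO2 replicate 1, KO2 replicate 2, WT replicate 1 or WT replicate 3 (0.20 to 0.39). Its change in KO1 was close to this, at 0.24 ± 0.10, and missed the threshold (adjusted p = 0.0695). KO1 against KO2 gave -0.04 for KRT15 (not called).

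The luminal factors GATA3 and FOXA1 were present at low levels and were lower in KO2. GATA3 averaged 6.41 ± 0.523 CPM in KO1 and 4.68 ± 0.422 CPM in KO2, against 5.76 ± 0.534 CPM in WT. FOXA1, a pioneer factor that opens chromatin for hormone receptors, averaged 3.86 ± 0.188 CPM in KO1 and 2.73 ± 0.370 CPM in KO2, against 3.90 ± 0.155 CPM in WT. FOXA1 fell in KO2 by 0.51 (SE 0.12; adjusted p = 0.00222), and GATA3 by 0.30 (SE 0.11; adjusted p = 0.0337). The GATA3 call in KO2 was lost without KO2 replicate 2, KO2 replicate 3, WT replicate 2 or WT replicate 3 (-0.37 to -0.24), with upper quartile scaling (-0.26) and with a replicate block (-0.30). Both were higher in KO1 than in KO2, by 0.46 for GATA3 and 0.50 for FOXA1 (adjusted p = 0.00238 and 0.00245).

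Beside the counts by role stand the shares of all genes called higher and lower, 18.0% and 16.8% in KO1, 24.7% and 24.7% in KO2, and 23.9% and 24.9% in KO1 against KO2. In all, 5 of 10 tested junction and surface genes were higher and 1 lower in KO1, and 3 were higher and 4 lower in KO2. In KO1 against KO2, 5 were higher and 2 lower, with a median difference of 0.68 against -0.0075 over all genes. Of 5 tested mesenchymal markers, 1 was higher and 0 lower in KO1, while 3 were higher and 1 lower in KO2, and 1 was higher and 3 lower in KO1 against KO2. Of 6 simple and other keratins, 2 were higher and 3 lower in KO1, and 0 were higher and 3 lower in KO2, with 3 higher and 1 lower in KO1 against KO2.

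Other genes of these states, taken from lists of fixed names, were read beside them. These lists were chosen with earlier results of these data known, so their shares are a description only. Of 24 tested genes of epithelial junctions and the epithelial programme, 5 were higher and 2 lower in KO1, and 5 higher and 4 lower in KO2, with median changes of 0.10 and -0.02. The share higher was 20.8% in each clone, near the 18.0% in KO1 and 24.7% in KO2 of all genes, and the share lower was 8.33% in KO1 and 16.7% in KO2, beside 16.8% and 24.7%. DSG2, a desmosomal cadherin, averaged 404.3 ± 9.37 CPM in KO1 and 283.2 ± 12.6 CPM in KO2, against 303.8 ± 5.94 CPM in WT, and KO1 was 0.51 ± 0.04 above KO2 (adjusted p = 4.70e-08). EHF, an epithelial transcription factor, rose in KO2 by 0.50 ± 0.05 (adjusted p = 3.65e-07).

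Of 25 tested mesenchymal genes, 16 were higher and 3 lower in KO1 (median 0.21), and 8 were higher and 9 lower in KO2 (median 0.05). The 16 of 25 are 64.0%, and of all genes 18.0% were higher and 16.8% lower in KO1, and 24.7% each way in KO2. TGFBI, a matrix protein induced by TGF-beta, averaged 156.0 ± 0.894 CPM in KO1 and 162.5 ± 3.68 CPM in KO2, against 74.8 ± 1.65 CPM in WT. TPM1, a tropomyosin, averaged 127.6 ± 4.68 CPM in KO1 and 32.5 ± 2.59 CPM in KO2, against 101.4 ± 1.56 CPM in WT. TNC, the gene of tenascin-C, averaged 97.6 ± 4.79 CPM in KO1 and 229.8 ± 7.01 CPM in KO2, against 118.0 ± 4.16 CPM in WT. TGFBI rose in both clones (1.06 and 1.12), and its difference of KO1 from KO2, -0.06 ± 0.04, was not called, while TPM1 rose in KO1 and fell in KO2 (0.33 and -1.65) and TNC fell in KO1 and rose in KO2 (-0.27 and 0.96), each at an adjusted p of 0.000318 or lower.

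Of 14 tested basal and myoepithelial genes, 6 were higher and 1 lower in KO1 (median 0.13), and 5 were higher and 5 lower in KO2 (median 0.02). The shares were 42.9% higher and 7.14% lower in KO1, beside 18.0% and 16.8% of all genes, and 35.7% each way in KO2, beside 24.7%. ITGA6, an integrin chain, averaged 1107.0 ± 30.8 CPM in KO1 and 606.1 ± 33.4 CPM in KO2, against 610.3 ± 15.2 CPM in WT. It rose in KO1 by 0.86 (adjusted p = 1.94e-09) and was not called in KO2 (-0.0098, adjusted p = 0.873). MYLK, a myosin light chain kinase of contractile cells, rose by 0.68 in KO1 and 0.51 in KO2 (adjusted p = 6.95e-08 and 3.83e-07).

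Of 15 tested luminal genes, 5 were higher and 5 lower in KO1 (median -0.14), and 4 were higher and 7 lower in KO2 (median -0.30). The shares were 33.3% each way in KO1, beside 18.0% higher and 16.8% lower of all genes, and 26.7% higher and 46.7% lower in KO2, beside 24.7% each way. SLC39A6, a zinc transporter induced by oestrogen in responsive cells, averaged 220.9 ± 10.8 CPM in KO1 and 111.7 ± 2.53 CPM in KO2, against 152.4 ± 7.25 CPM in WT. CA12, a carbonic anhydrase of luminal tumours, averaged 54.8 ± 3.04 CPM in KO1 and 25 ± 1.61 CPM in KO2, against 37.2 ± 0.868 CPM in WT. These genes rose in KO1 and fell in KO2, by 0.54 and -0.45 for SLC39A6 and 0.56 and -0.57 for CA12, all at adjusted p values of 3.74e-06 or lower. GREB1, an oestrogen-induced gene, stood at 0.408 ± 0.137 CPM in KO1 and 1.91 ± 0.210 CPM in KO2, against 0.203 ± 0.0448 CPM in WT. It rose by 1.03 in KO1 and 3.24 in KO2 (adjusted p = 0.0162 and 1.08e-07), though the KO1 libraries overlapped WT. ESR1 itself was near 0 in every library. Of 18 other keratins, 3 passed the filter, and 0 of these were called by edgeR in any of the 3 comparisons.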

How the data were processed

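RNA of 9 libraries of MDA-MB-231 cells was measured by RNA-seq. Each deposited table holds whole-number read counts per gene symbol, which the authors left without normalization. Per the file headers the reads were aligned with HISAT2, and per the submitters' processing notes they were trimmed with Trim Galore; the builds hg38, GRCm38 and mm10 are named there without a role. The counter, annotation, strand setting and tool versions were not stated in the labels or headers.

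The analysis started from these counts in R 4.3.3, with edgeR 4.0.16 (filterByExpr, TMM scaling, quasi-likelihood F test with robust settings, 1 mean per group over all 9 libraries), and adjusted by Benjamini-Hochberg over all 17759 tested genes. The fit was tested on simulated data. Standard errors are the size of the log2 change divided by the square root of F. CPM are counts scaled to a common TMM-scaled library total, with errors as SD. Exon lengths, GC content and positions were taken from GENCODE release 29 (GRCh38), and promoter sequence from RefSeq (GRCh38.p14). An exon length counts each base in any annotated exon of a gene once. Alternatives used DESeq2 1.42.0 and limma 3.58.1, other scalings and filters, only the groups compared, a replicate block, removal of each library's GC trend, and each library left out. Genes given library by library were those called at least 2-fold changed and the 6 with the highest level per kilobase. With them were 8 that define the state of the line, and some others, among them DSP, KRT7 and OCLN. Of the lists of other genes, up to 3 were named by the smallest p among changes of at least 0.5 on the log2 scale. Some genes that this rule names are not reported here. The 43 genes and these lists were chosen with earlier results of these data known. Libraries of the same group differed by more than counting noise (chi-square over its degrees of freedom, 5.85 to 28.7). Floors and intervals of counts cover counting error only.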

Additional observations from a re-analysis of the deposited data

Results flagged for a closer look

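For 20 of the 32 tested genes, the change in KO1 differed from the change in KO2 by edgeR's test of that difference (adjusted p under 0.05; KO1 minus KO2, log2 scale). KO1 was higher for MPZL2 by 2.62, EPCAM by 2.43, S100A4 by 1.54, TP63 by 1.32 and CLDN7 by 1.05. It was also higher for CLDN1 by 0.75, DSP by 0.67, KRT7 by 0.65, FOXA1 by 0.50, GATA3 by 0.46, KRT81 by 0.45, KRT80 by 0.38 and ZEB1 by 0.16. KO1 was lower than KO2 for CD24 (-1.49), SNAI2 (-0.67), JUP (-0.44), CD44 (-0.36), VIM (-0.27), AXL (-0.21) and KRT18 (-0.15). The background is 48.9% of all tested genes. Each knockout is 1 clone, so a difference between clones and any effect of losing FBXL12 cannot be told apart, whichever way the changes go.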

How the results depend on the processing

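Of 56 called changes among the state genes, 44 kept their call under each of the 18 alternatives that gave a value, 12 lost it under at least 1, and 0 turned round. Of the 40 changes not called, 20 were called in the same direction under at least 1 alternative. Beside those given above, these were JUP (0.32), KRT15 (0.37) and GATA3 (0.23) in KO1 and KRT81 (0.38) in KO2 with the GC trend removed, KRT19 in KO2 without a filter (-0.14), and MUC1 in KO1 against KO2 with the GC trend removed (-0.71). KRT15 in KO1 was also called without WT replicate 2 (0.36), without a filter (0.25), with DESeq2 (0.25) and with limma-voom (0.25). KRT19 in KO1 against KO2 was called under 7 alternatives (-0.31 to -0.21), among them without KO1 replicate 1 and without WT replicate 2. With the GC trend removed, 16 state genes were higher in KO1, against 10 with it left in. With that trend removed, uncalled changes against WT turned to -0.018 for ZEB1, 0.32 for MUC1, 0.23 for KRT7 and 0.015 for FOXA1 in KO1, and to 0.034 for KRT18 and 0.19 for KRT19 in KO2. For KO1 against KO2, ZEB2 was 0.013 without a filter and 0.0051 with only those groups fitted, and upper quartile scaling gave -0.014 for CDH2 and -0.011 for KRT8. Leaving out 1 library at a time turned further uncalled changes. In KO1 against WT the ranges were -0.047 to 0.024 for VIM, -0.46 to 0.059 for CDH2, -0.016 to 0.23 for JUP, -0.29 to 0.037 for MUC1, -0.11 to 0.028 for KRT7 and -0.031 to 0.040 for FOXA1. In KO2 against WT they were -0.49 to 0.033 for CDH2, -0.012 to 0.18 for ESRP2 and -0.037 to 0.18 for KRT81. In KO1 against KO2 they were -0.020 to 0.049 for ZEB2, -0.12 to 0.22 for CDH2, -0.092 to 0.039 for KRT15 and -0.045 to 0.093 for KRT8. The cause was not tested.

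The replicate numbers are shared between groups. Deviations from the group means of same-numbered libraries correlated at -0.526 to 0.478. The highest correlation with a library of another number ran from -0.0212 to 0.536. Deviations within a group of 3 sum to 0, so these values cannot settle whether the numbers pair the libraries. With a replicate block, 9 state genes were higher and 3 lower in KO1, 10 higher and 10 lower in KO2, and 13 higher and 7 lower in KO1 against KO2. Of all genes the same fit called 16.5% higher and 14.7% lower in KO1, 23.5% and 23.2% in KO2, and 22.6% and 23.8% in KO1 against KO2. Genes with few counts (ESRP1, ELF3, TP63, MUC1, CDH2) are limited by depth.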
